A study of Mus musculus
Mus spretus with 18 samples.

Results

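Snrpn, Peg3, Mest, Sgce, Plagl1, Impact, Meg3, Igf2r, Grb10 and Gnas, 10 genes known from the literature as imprinted in the mouse, were followed through the allele-resolved RNA-seq reads of F1 hybrid mice. They were taken by gene symbol and are 10 of the 14317 autosomal genes with allelic reads at a skipped exon. Together they hold 93 of the 101179 skipped exon events with allelic reads, where 1 event is an exon with its upstream and downstream neighbours. For each gene, allele and replicate, the reads on the inclusion and skipping junctions of all its events were summed, and the share of C57BL/6J reads among the reads of both alleles is given as a percentage. Of 90 possible combinations of gene and condition, 62 had at least 20 such reads in each replicate and were tested.

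An imprinted gene is transcribed mainly from the copy inherited from 1 parent. The choice rests on DNA methylation laid down differently in egg and sperm, and it can be set differently in different tissues or at different promoters of the same gene. Snrpn, Peg3, Mest, Sgce, Plagl1 and Impact are known as paternally expressed, and Meg3 and Igf2r as maternally expressed. Grb10 is known for maternal expression in most tissues and paternal expression in neurons, Igf2r for expression from both copies in neurons, and Gnas for several promoters with different parental bias.

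The study crossed female C57BL/6J mice with male SPRET/EiJ mice, 2 mouse species, to measure how splicing diverges in cis, and set imprinted genes aside from its own analyses. RNA-seq libraries were made from cerebral cortex, heart, kidney, lung, spleen and liver of 8-week-old F1 animals, from F1 embryonic stem cells (ESC), and from an F1 fibroblast line treated for 4 h with 0.1 µM pladienolide B (PladB), an inhibitor of the spliceosome component SF3B1, or with DMSO alone. Each of the 9 conditions had 2 replicates. All animals and cells carry the same hybrid genome.

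The organs came from 2 animals, the liver libraries came from an earlier study and carry other maternal strain names in their labels, and the ESC replicates are separate clones grown in 2i and LIF. The fibroblast replicates are cultures of 1 line, so their p-values may measure technical spread alone. In this cross the C57BL/6J allele is always maternal and the SPRET/EiJ allele always paternal, so that an effect of strain and an effect of parent of origin cannot be told apart in any value below. Organs are mixtures of cell types, and fewer cells of a type and less RNA per cell cannot be told apart in them.

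The 18 libraries held 46558287 to 151755602 skipped exon junction reads, of which 10603054 to 48555783 were assigned to C57BL/6J and 10338947 to 43070354 to SPRET/EiJ. The C57BL/6J share of a whole library lay between 48.3% and 53.8%. Marker genes of each labelled tissue or cell type were highest in its own libraries. A read can count in several events of a gene, so 95% intervals (Clopper-Pearson) are given for the deepest event of a gene alone, and they cover counting error only.

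Across all 62 tested combinations, the 10 imprinted genes lay a median of 47.5 percentage points from an equal split, against 5.67 points over the 74209 combinations of all genes. At least 90% of reads were on C57BL/6J in both replicates in 17 combinations, where 0.994% of all combinations reached that level, and at least 90% were on SPRET/EiJ in 20, where 0.955% did. Tested with limma-voom at a Benjamini-Hochberg adjusted p below 0.05, 18 combinations were higher on C57BL/6J, 27 were higher on SPRET/EiJ and 17 were not called. Of the combinations of all genes, 15.4% were called higher on C57BL/6J and 14.8% on SPRET/EiJ. The median absolute log2 ratio of the 2 alleles was 5.37, against 0.33 for all genes. In 9 of the combinations 1 allele had at most 3 reads over both replicates, and their log2 ratios depend on the small count that voom adds.

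**Figure D1:**
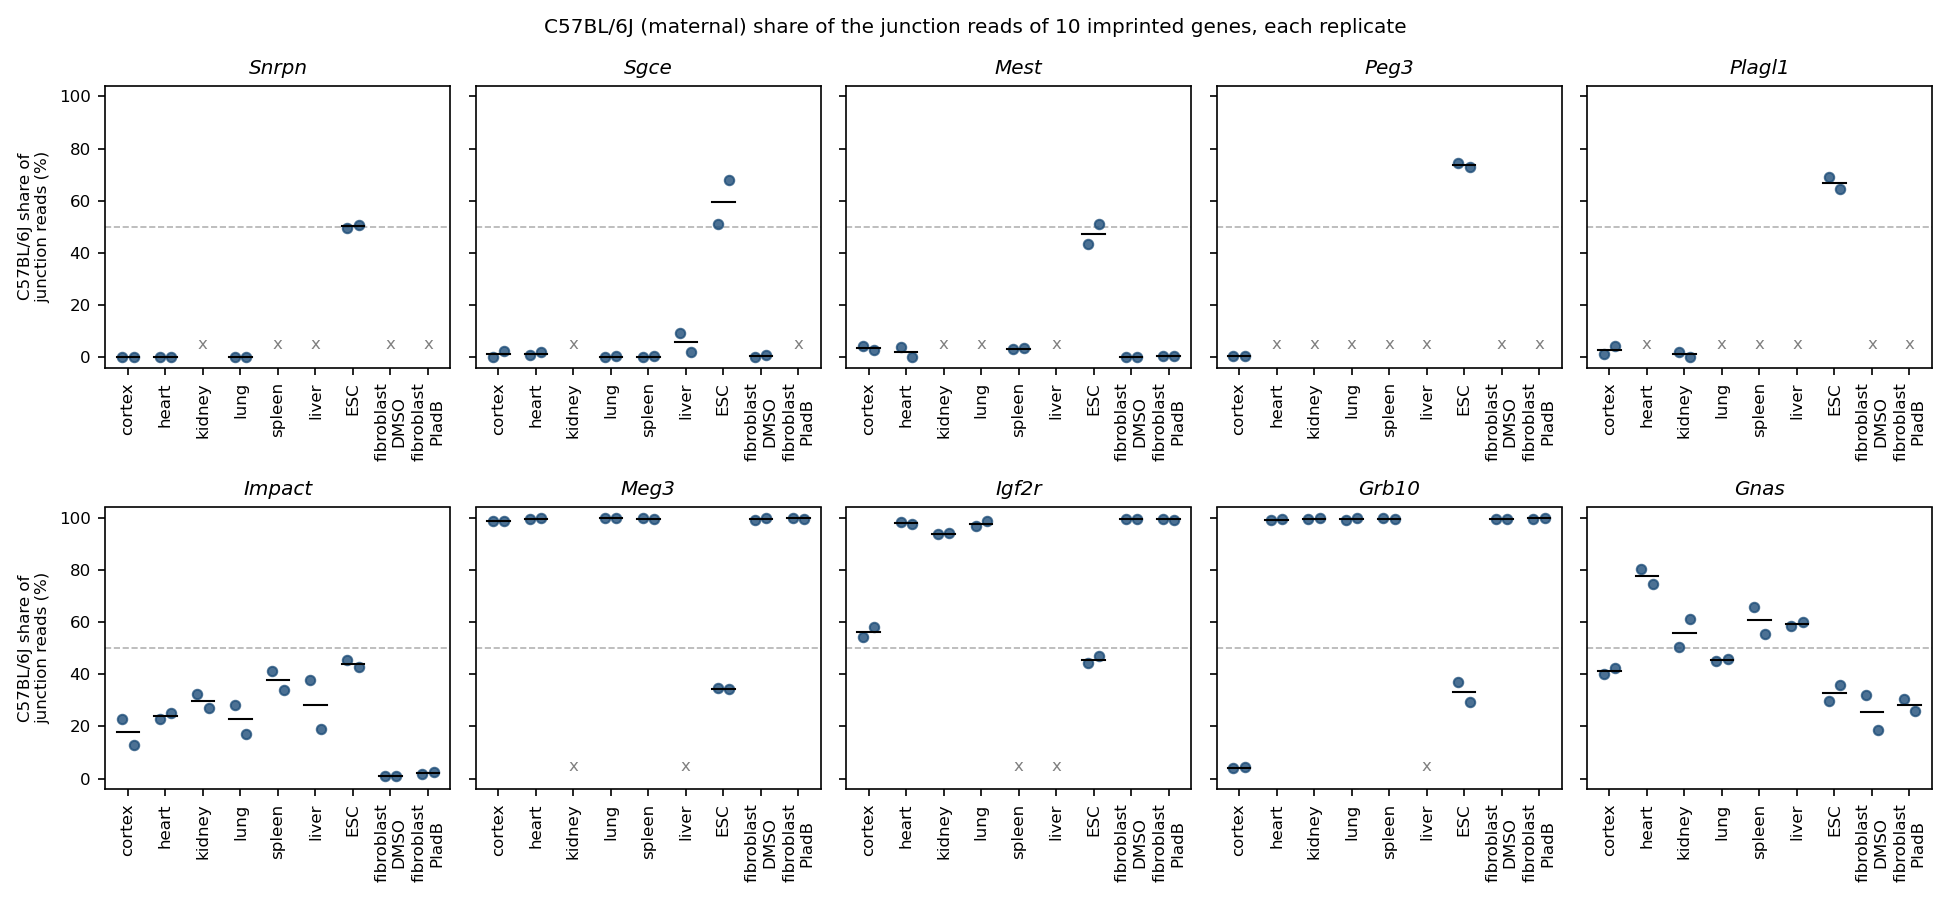
C57BL/6J share of allelic junction reads (%, vertical axis) of each imprinted gene in the 9 conditions (horizontal axis), 1 point per replicate, with crosses at the bottom for conditions below 20 reads in a replicate. Most genes sat near 0% or 100% outside ESC, Grb10 moved from 99.3% or more in heart to under 5% in cortex, and all 10 genes lay between 29.5% and 74.5% in ESC.

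Snrpn (chr7:59982495-60450177, mm10 coordinates as for every position here) encodes SmN, a protein of the spliceosome that is most abundant in brain. In cortex its C57BL/6J shares were 0.0664% and 0.0576%, from 72 and 62 C57BL/6J reads against 108336 and 107648 SPRET/EiJ reads. In the deepest cortex event the shares were 0.0470% (95% interval 0.0263 to 0.0776) and 0.0354% (0.0177 to 0.0633). Both cortex libraries were thus almost wholly on SPRET/EiJ, with a log2 ratio of C57BL/6J to SPRET/EiJ of -10.67 ± 0.18 (SE, n = 2; limma-voom, adjusted p = 4.92e-14). Heart shares were 0% and 0.0280%, and lung shares were 0.105% and 0%, each with at most 1 C57BL/6J read per library. In ESC the shares were 49.5% and 50.7%, which do not overlap those of any other condition.

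Peg3 (chr7:6703892-6730462), a zinc finger protein gene active in brain and embryo, had allelic skipped exon reads in cortex and ESC alone. Reads of C57BL/6J made up 0.374% and 0.354% in cortex, from 8 and 7 reads against 2132 and 1968. In ESC the order was turned, with shares of 74.5% and 72.9%. The ESC log2 ratio of 1.47 ± 0.22 was not called (adjusted p = 0.0666) but was called once the library was a block (adjusted p = 0.00673).

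Sgce (chr6:4674350-4747204) encodes epsilon-sarcoglycan, a membrane protein linked to myoclonus-dystonia. C57BL/6J made up 0.208% and 2.43% of its reads in cortex, 0.649% and 2.10% in heart, 0.0587% and 0.282% in lung, 0% and 0.247% in spleen, and 0% and 0.926% in DMSO-treated fibroblasts. Liver shares were higher and less alike, 9.18% and 2.08%. In every one of these 6 conditions Sgce was called higher on SPRET/EiJ, with log2 ratios from -9.61 in lung to -4.25 in liver. In ESC the shares were 50.9% and 67.8%.

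Mest (chr6:30733506-30748466), which encodes a hydrolase-like protein of mesoderm, had C57BL/6J shares of 4.23% and 2.77% in cortex, 3.81% and 0% in heart, and 3.25% and 3.31% in spleen. Shares in fibroblasts were 0.175% and 0% with DMSO and 0.258% and 0.586% with PladB, below those of cortex and spleen. All 5 of these conditions were called higher on SPRET/EiJ, with log2 ratios between -10.03 and -4.75. In ESC the shares were 43.4% and 51.3%.

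Within the ESC reads of Mest, 1 upstream event, with the exon at chr6:30740240-30740343, differed from the rest of the gene. It held 24 and 9 inclusion and 41 and 16 skipping reads of C57BL/6J, against 0 and 1 inclusion and 1 and 0 skipping reads of SPRET/EiJ. This event was picked out after its values were seen, and its SPRET/EiJ reads were too few for a test of splicing.

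Plagl1 (chr10:13090832-13131694) encodes a zinc finger transcription factor that restrains growth. Its C57BL/6J shares were 1.18% and 4.41% in cortex and 2.08% and 0% in kidney, both called higher on SPRET/EiJ with log2 ratios of -5.29 ± 0.49 and -6.22 ± 0.70. Its deepest kidney event had 1 and 0 C57BL/6J reads of 62 and 49, with upper 95% bounds of 8.66% and 7.25%. Heart and spleen had too few reads for a test. In ESC the shares were 68.9% and 64.5%, on the C57BL/6J side as for Peg3.

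Impact, a regulator of the translation kinase GCN2, stood between the others in the organs. Its C57BL/6J shares were 23.0% and 12.9% in cortex, 22.9% and 25.2% in heart, 32.4% and 27.2% in kidney, 28.4% and 17.2% in lung, 41.4% and 34.1% in spleen and 37.6% and 18.8% in liver. The SPRET/EiJ allele thus led in all 12 organ libraries, but in none of them did it reach 90%. Impact was called higher on SPRET/EiJ in cortex, heart, kidney and lung, with log2 ratios from -2.27 to -1.28.

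In spleen the log2 ratio of Impact was -0.75 ± 0.18 (adjusted p = 0.0516), and with the library as a block it was called (adjusted p = 1.16e-04). In liver it was -1.41 ± 0.46 and was not called (adjusted p = 0.107). Fibroblasts differed from the organs, with shares of 0.871% and 0.953% under DMSO and 1.69% and 2.72% under PladB. ESC shares were 45.4% and 42.7%, above every library of the other conditions.

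Meg3 (chr12:109540996-109571729), a long noncoding RNA of the Dlk1-Dio3 region, was on C57BL/6J in every condition except ESC in which it was tested. Its C57BL/6J shares were 99.0% and 98.9% in cortex, 99.4% and 100% in heart, 99.8% and 99.9% in lung and 100% and 99.5% in spleen. Fibroblast shares were 99.3% and 99.9% with DMSO and 100% and 99.7% with PladB. Log2 ratios lay between 6.57 and 9.82, all called. In ESC both clones were below an equal split, at 34.9% and 34.2%.

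Igf2r (chr17:12682406-12769706) encodes the receptor that clears insulin-like growth factor 2 and sorts lysosomal enzymes. Shares of C57BL/6J were 98.5% and 97.8% in heart, 93.8% and 94.2% in kidney, 96.8% and 98.8% in lung, 99.4% and 99.5% in DMSO-treated fibroblasts, and 99.8% and 99.4% in PladB-treated fibroblasts. Cortex stood apart, with 54.4% (95% interval 45.3 to 63.3) and 58.1% (48.6 to 67.2), from 68 C57BL/6J reads in each library against 57 and 49 SPRET/EiJ reads. The cortex log2 ratio of 0.34 ± 0.25 was not called (adjusted p = 0.345). ESC shares were 44.2% and 47.0%.

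Grb10 (chr11:11930499-12037428), an adaptor protein that damps insulin and growth factor signalling, was the one gene of the 10 called toward different alleles in different tissues besides Gnas. Its C57BL/6J shares were 99.3% and 99.4% in heart, 99.5% and 100% in kidney, 99.0% and 100% in lung and 100% and 99.5% in spleen, and between 99.7% and 99.9% in the 4 fibroblast libraries. In cortex the shares were 3.92% and 4.60%, with a log2 ratio of -4.48 ± 0.28 (adjusted p = 7.26e-08). The deepest cortex event held 18 and 17 C57BL/6J reads against 396 and 419 SPRET/EiJ reads. In ESC the shares were 37.1% and 29.5%.

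Gnas (chr2:174284320-174346744) encodes the stimulatory G protein alpha subunit and, from other first exons, further transcripts. Its summed C57BL/6J shares were 40.0% and 42.3% in cortex, 80.6% and 74.5% in heart, 50.6% and 61.1% in kidney, 45.2% and 45.9% in lung, 66.0% and 55.6% in spleen and 58.7% and 60.0% in liver. In the cultured cells they were 29.8% and 35.9% in ESC, 32.2% and 18.8% with DMSO and 30.5% and 26.0% with PladB. Heart was called higher on C57BL/6J (log2 ratio 1.75 ± 0.33), and cortex and both fibroblast conditions higher on SPRET/EiJ (-0.53 ± 0.14, -1.60 ± 0.46 and -1.37 ± 0.15). Kidney, lung, spleen, liver and ESC were not called. From the deepest event alone kidney was called (1.55, adjusted p = 0.0186), and in 1 fit over all 9 conditions the cortex call was lost (adjusted p = 0.467).

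The sum over Gnas mixes events with different allelic shares. It also weighs them by how many of their reads could be assigned to an allele, which differed widely between events. The events were therefore set out by position along the gene, a grouping made after their values were seen. Among the most upstream exons, the event at chr2:174288491-174288586 was 86.4% and 88.9% C57BL/6J in cortex, on 22 and 27 reads. The ESC event with most reads, at chr2:174284604-174285477, was 22.8% and 29.8%. The small exon at chr2:174328108-174328131 with its neighbours on both sides leaned to SPRET/EiJ, with C57BL/6J shares of 0.704% and 8.33% in cortex and 0% and 20.6% in lung. The replicates differed, and the last of these values rests on 7 of 34 reads.

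Few reads at the exons shared by the main Gnas transcripts could be assigned to an allele. In cortex 120 and 125 of 19804 and 20915 reads were assigned at the exon chr2:174336747-174336791. In heart 51 and 36 of 13309 and 12492 were. At the small exon spliced to 174328367, 142 and 180 of 301 and 389 cortex reads were assigned. Whether the assigned reads stand for all reads was not tested. Those of the shared exons leaned toward C57BL/6J in cortex and heart. The event with exon chr2:174334212-174334284 and downstream exon start 174341653 was 61.4% and 69.2% C57BL/6J in cortex, 89.6% and 75.2% in heart, 80.0% and 70.1% in kidney, 69.3% and 65.9% in lung and 74.4% and 59.4% in spleen. In DMSO-treated fibroblasts the event with exon chr2:174336747-174336791 was 18.9% and 14.4%. In lung the events disagreed with each other, since the event at chr2:174341650-174341707 held 27.8% and 22.7%. The log2 ratio of Gnas in lung accordingly turned from -0.30 for the sum to 1.01 for the deepest event alone, neither of them called.

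**Figure D2:**
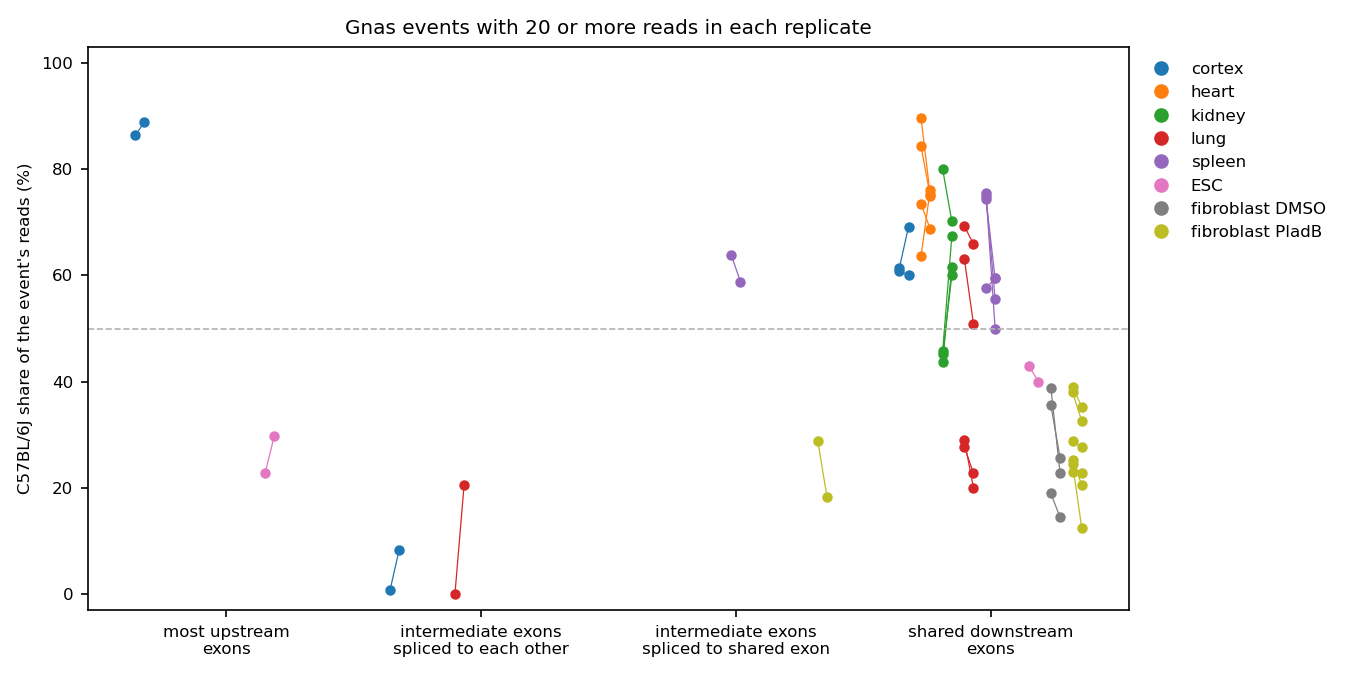
C57BL/6J share (%, vertical axis) of single Gnas events with at least 20 reads in each replicate, grouped by position along the gene (horizontal axis), with the 2 replicates of an event and condition as points joined by a line, coloured by condition. The event of the small intermediate exon lay between 0% and 20.6% in cortex and lung, while events over the shared exons spread from 12.5% in PladB-treated fibroblasts to 89.6% in heart.

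In cortex 1 of 10 was higher on C57BL/6J and 8 on SPRET/EiJ, where 14.6% and 13% of all tested genes were called. In heart the counts were 4 and 4 of 8 (all genes 16% and 15.9%), in kidney 2 and 2 of 5 (17.8% and 17.1%), and in lung 3 and 3 of 7 (15.3% and 14.5%). Spleen had 2 and 2 of 6 (5.35% and 4.79%) and liver 0 and 1 of 3 (7.95% and 7.55%). In fibroblasts the counts were 3 and 4 of 7 with DMSO (31.3% and 31.5%) and 3 and 3 of 6 with PladB (29.2% and 27.5%). Single libraries were left out of another model, 1 fit over all 9 conditions, and carried some of its calls, in heart and lung among others. With all libraries that fit gave 1 and 7 in cortex, 2 and 2 in kidney, 2 and 2 in spleen and 0 and 2 in liver. Without kidney replicate 2 the counts there were 2 and 0, and without liver replicate 2 they were 0 and 0. With either cortex library left out they were 1 and 5 in cortex, and with either spleen library left out 2 and 1 in spleen.

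In ESC 0 of 10 genes were called in either direction, where 0.629% of all genes were called higher on C57BL/6J and 0.827% on SPRET/EiJ. At an unadjusted p below 0.05, Peg3 and Grb10 passed in the same limma-voom test. With the library as a block, Peg3 and Plagl1 were called higher on C57BL/6J and Grb10 and Meg3 on SPRET/EiJ, with log2 ratios of 1.47, 0.96, -1.01 and -0.94. A quasi-binomial model called these 4 and Gnas, and 1 shared fit over all 9 conditions called 1 gene. The median distance from an equal split in ESC was 12.4 points for the 10 genes and 6.30 points for all genes, against 46.9 and 3.78 points in cortex.

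**Figure D3:**
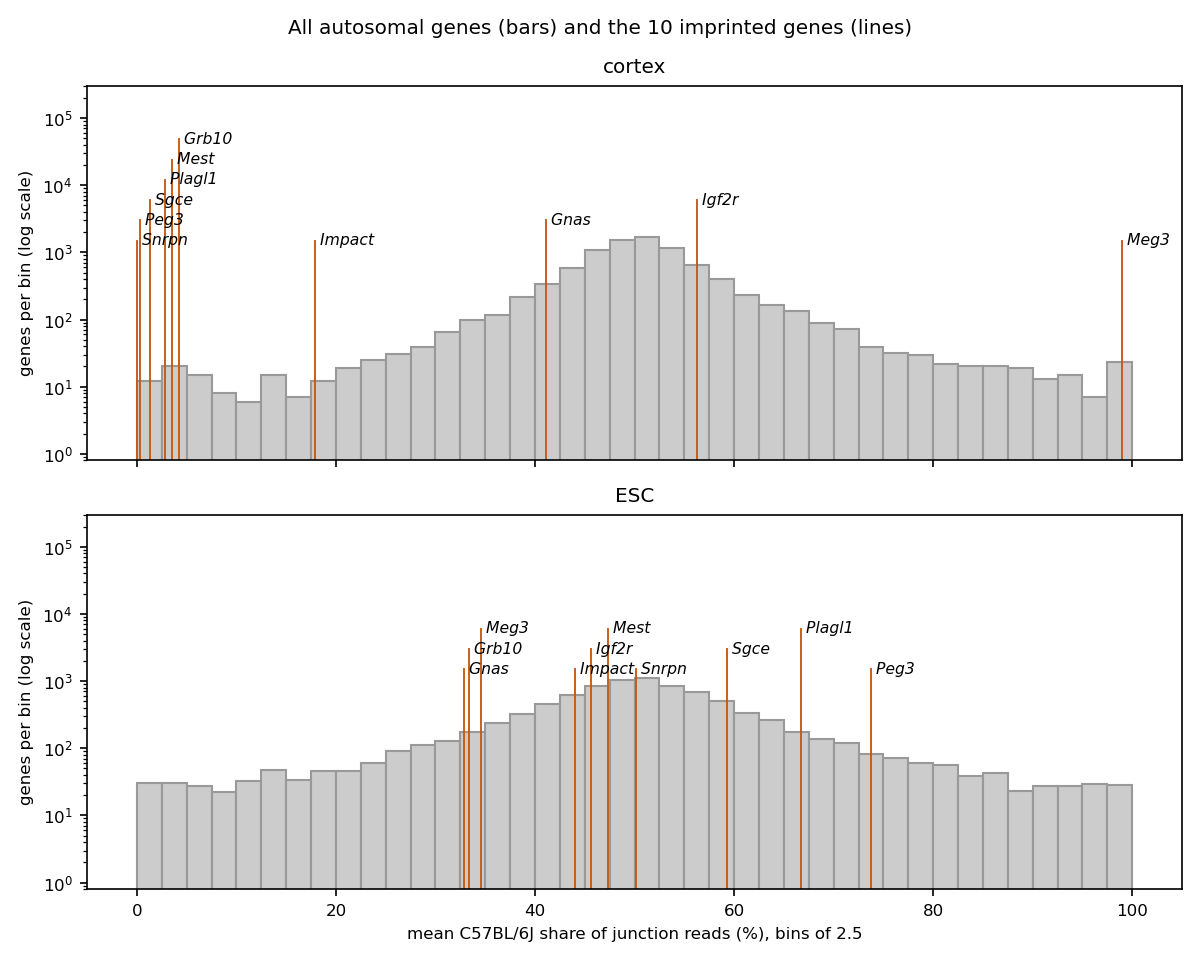
Number of autosomal genes (vertical axis, log scale) by mean C57BL/6J share (horizontal axis, %, bins of 2.5 points) in cortex and ESC, with a line for each of the 10 imprinted genes, line heights being arbitrary. In cortex 7 of the genes stood outside 10% to 90%, and in ESC none did.

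Whether the allele ratio differed between cortex and the mean of the 6 other tissues was tested as an interaction in 1 limma-voom fit. Of the 10 genes 5 were called, all toward SPRET/EiJ in cortex, where 5.13% of 8349 genes were called. The differences in log2 ratio were -9.28 ± 0.92 for Grb10, -8.25 ± 0.14 for Peg3, -6.97 ± 0.58 for Snrpn, -2.15 ± 0.35 for Igf2r and -1.06 ± 0.29 for Impact. A tissue without reads of a gene counts with a ratio near 1 in this mean. Tested in each tissue alone, the log2 ratio of Snrpn in cortex (-10.67) lay between those of heart (-12.1) and lung (-10.0). Over the tissues with enough reads alone, an alternative chosen after seeing the data, the differences were -10.24 for Grb10, -9.52 for Peg3 (against ESC alone), -3.30 for Snrpn, -3.41 for Igf2r and -1.06 for Impact, all still called.

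The call for Impact (adjusted p = 0.0452) was lost without cortex replicate 2 (-0.55, adjusted p = 0.847), without trimmed mean factors (adjusted p = 0.0570) and at 100 or more reads per replicate (adjusted p = 0.0533). It was also lost without either heart, kidney, lung or spleen replicate or without liver replicate 1, with adjusted p from 0.0522 to 0.0988. That for Igf2r was lost without cortex replicate 1 (-2.03, adjusted p = 0.0790). With the library as a block, Meg3 (2.29, adjusted p = 0.0352) and Gnas (-0.85, adjusted p = 0.0178) were called too. The deepest event of Gnas alone gave -5.80 (adjusted p = 1.06e-04), but this sets different exons against each other. The deepest event was at the small exon chr2:174328108-174328131 in cortex but at chr2:174334212-174334284 in heart, kidney and lung. At the latter event cortex was 61.4% and 69.2% C57BL/6J. For Meg3 the difference was 0.17 over the tissues with enough reads. Sgce, Plagl1 and Mest had differences of -2.26, -3.66 and -2.05 and were not called.

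The same test of ESC against the 6 organs, which share their libraries with the test of cortex, called all 10 genes, where 21.4% of 8498 genes were called. Relative to the organs, 6 genes moved toward C57BL/6J and 4 toward SPRET/EiJ. The paternally expressed genes moved up by 6.65 ± 0.80 for Sgce, 5.50 ± 0.38 for Snrpn, 3.70 ± 1.10 for Plagl1, 3.37 ± 0.86 for Mest, 2.87 ± 0.12 for Peg3 and 1.21 ± 0.26 for Impact. Meg3, Grb10, Igf2r and Gnas moved by -6.41 ± 0.89, -5.21 ± 0.77, -2.82 ± 0.18 and -1.41 ± 0.34. In this mean too an organ without reads of a gene counts with a ratio near 1, so these sizes depend on such organs. Over the organs with enough reads alone all 10 calls held, with 10.96 for Snrpn and 9.52 for Peg3 (against cortex alone). Sgce, Plagl1 and Mest were then at 7.87, 6.75 and 5.19, and Meg3, Grb10 and Igf2r at -9.18, -6.06 and -4.13. Impact (1.21) and Gnas (-1.41) stayed alike. From the deepest event alone the call for Gnas was lost (-1.69, adjusted p = 0.171). In ESC that event was at chr2:174284604-174285477, not at the exon that was deepest in heart, kidney and lung.

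Without ESC replicate 1 the calls for Plagl1, Mest and Gnas were lost, which left 7, and without ESC replicate 2 those for Plagl1 and Mest, which left 8. The call for Plagl1 was also lost without cortex replicate 1, lung replicate 1 or lung replicate 2, with adjusted p between 0.0604 and 0.0688. The shares of both ESC clones lay above those of every tested organ library for Snrpn, Peg3, Mest, Sgce, Plagl1 and Impact, and below them for Meg3, Igf2r and Gnas. For Grb10 they lay below every organ but above cortex.

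Between PladB and DMSO, the allele ratio of 0 of the 6 genes tested in both fibroblast conditions passed the adjusted threshold in limma-voom, where 8.77% of 7297 genes were called. At an unadjusted p below 0.05, Impact (1.21 ± 0.40, adjusted p = 0.110) and Mest (2.01 ± 0.77, adjusted p = 0.158) passed, and a quasi-binomial model called 0. The differences of the other genes were 0.64 ± 0.37 for Grb10, 0.98 ± 1.47 for Meg3, 0.43 ± 0.49 for Igf2r and 0.16 ± 0.62 for Gnas.

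Total expression was measured as TPM, read counts scaled by gene length and library, from the reads of both alleles together, and its levels can be compared between genes. Meg3 (1087 and 972 TPM) and Snrpn (791 and 824 TPM) were the most abundant of the 10 in cortex, followed by Impact (337 and 310), Gnas (323 and 323) and Peg3 (170 and 162). Compared with the mean of the 6 other tissues on the log2(TPM + 0.1) scale, 9 of 10 genes were called higher in cortex by limma at an adjusted p below 0.05 and a fold of at least 2, where 34.9% of all genes were higher and 19.8% lower. The differences were 8.87 ± 0.73 for Meg3, 5.36 ± 0.11 for Snrpn, 5.20 ± 0.14 for Peg3, 3.67 ± 0.14 for Impact, 2.34 ± 0.28 for Mest, 1.82 ± 0.27 for Plagl1, 1.55 ± 0.12 for Gnas, 1.36 ± 0.14 for Grb10 and 1.11 ± 0.17 for Sgce. With a pseudocount of 1 the Sgce difference was 0.996, under the fold required, which left 8.

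Igf2r alone lay lower in cortex, at 20.1 and 21.1 TPM, with a difference of -0.73 ± 0.10 that is under the fold required. It was highest in ESC (162 and 125 TPM) and heart (73.1 and 80.5 TPM). Its cortex level thus lay below those of heart, kidney, lung and ESC and above those of spleen and liver, with no overlap of replicates between neighbouring tissues.

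**Figure D4:**
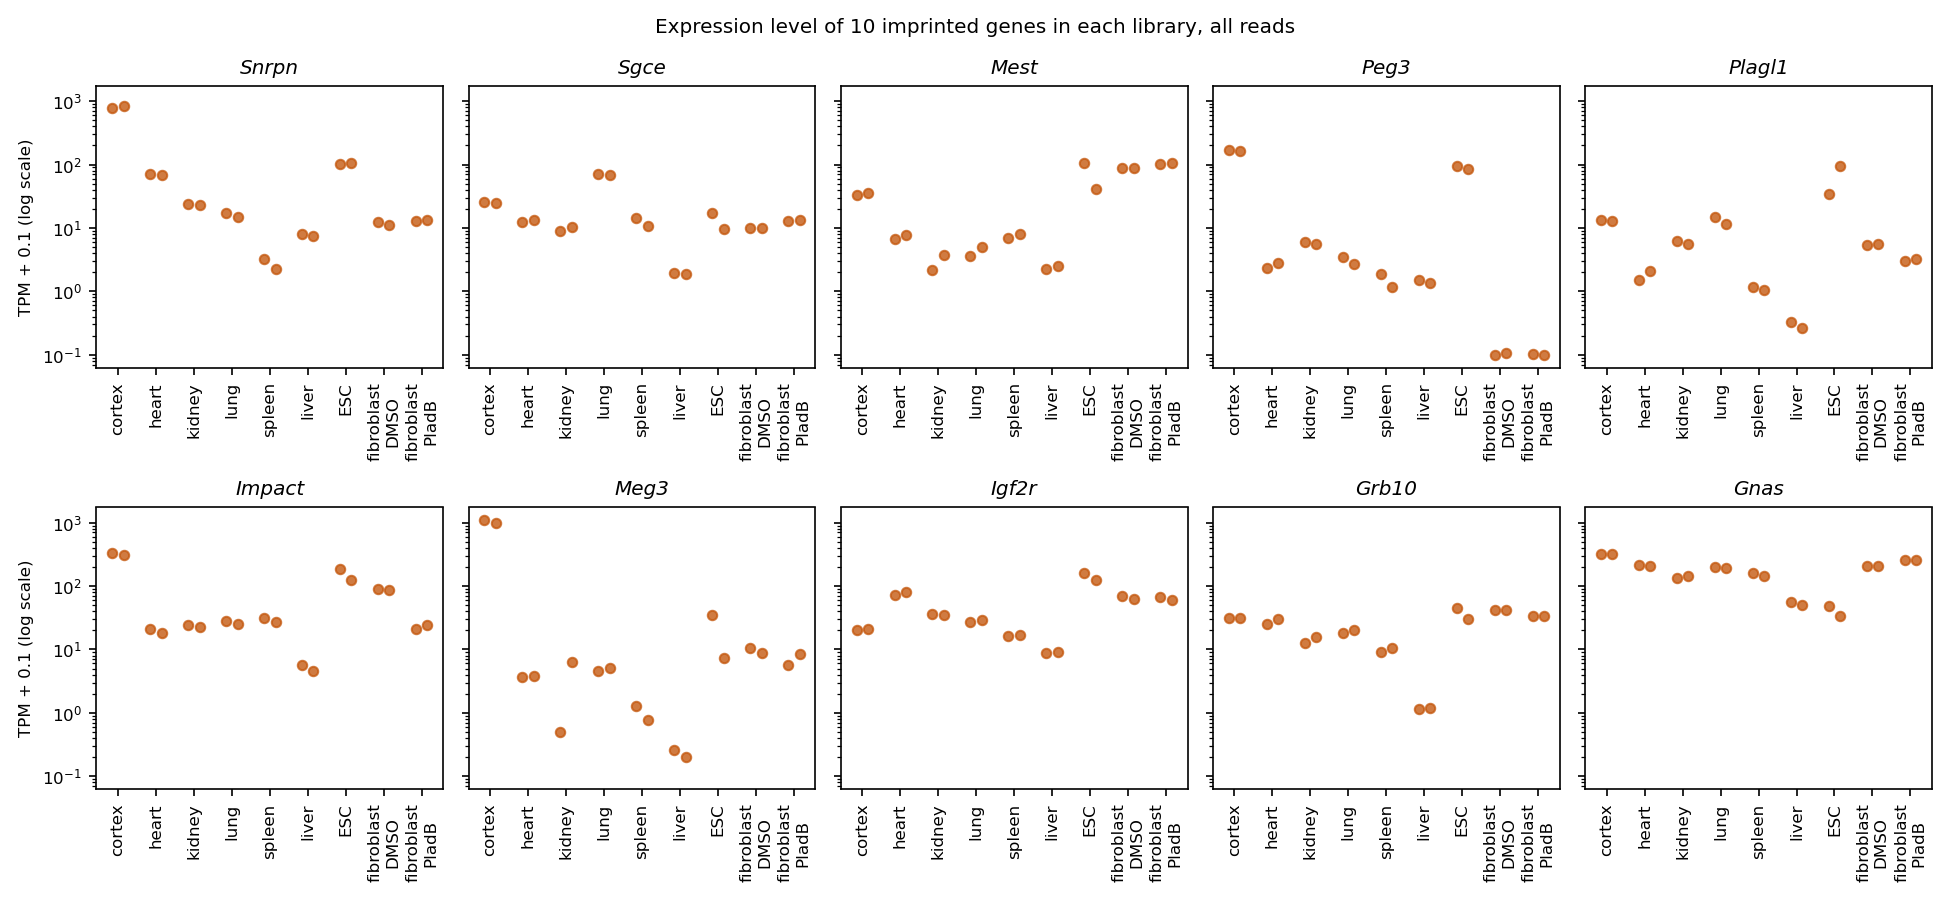
Expression of the 10 imprinted genes (TPM + 0.1, log scale, vertical axis) in each library of the 9 conditions (horizontal axis), 1 point per library. Snrpn, Peg3, Meg3, Impact and Gnas were highest in cortex, and Peg3 was between 0 and 0.00520 TPM in the fibroblasts.

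ESC expressed all 10 genes. Against the 6 organs, 8 were called higher and 1 lower, where 36.2% of all genes were higher and 24.5% lower. Plagl1 rose by 4.30 ± 0.27 (34.5 and 93.7 TPM in ESC), Peg3 by 4.16 ± 0.14 (93.2 and 86.3 TPM), Mest by 3.44 ± 0.28 (106 and 41.3 TPM) and Igf2r by 2.52 ± 0.10. Impact, Snrpn and Grb10 rose by 2.40 ± 0.14, 1.92 ± 0.11 and 1.64 ± 0.14. Gnas fell by 1.94 ± 0.12 on the log2 scale, to 49.1 and 33.5 TPM.

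The 2 ESC clones differed in the level of several of these genes. Meg3 was at 34.7 and 7.34 TPM, and its rise of 1.87 ± 0.73 (adjusted p = 0.0317) was lost without ESC replicate 1 (0.76) and with a pseudocount of 1 (1.20). Sgce was at 17.4 and 9.38 TPM and differed from the organs by -0.03 ± 0.17. The allelic shares of Meg3 in the same clones were 34.9% and 34.2%.

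Among the other tissues, Sgce was highest in lung (71.3 and 68.0 TPM), Mest in PladB-treated fibroblasts (101 and 107 TPM, with ESC at 106 and 41.3 TPM overlapping) and Grb10 in DMSO-treated fibroblasts (41.1 and 41.4 TPM), where it overlapped ESC (45.0 and 29.6 TPM). Liver had the lowest mean of the 9 conditions for Impact, Mest, Grb10, Igf2r, Sgce, Meg3 and Plagl1, with Grb10 at 1.07 and 1.10 TPM and Plagl1 at 0.226 and 0.168 TPM. Meg3 in kidney differed between animals, at 0.398 and 6.26 TPM.

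After PladB, Impact was the one gene of the 10 whose level passed the test, going from 88.2 and 85.4 TPM with DMSO to 20.8 and 24.0 TPM, a fall of 1.95 ± 0.18 on the log2 scale (limma, adjusted p = 1.54e-06). Of all genes 2.99% were higher and 35.8% lower. The other 9 genes had differences from -0.83 ± 0.35 (Plagl1) to 0.41 ± 0.22 (Sgce) and did not pass. Over all genes the median difference was -0.42.

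Allelic differences in exon inclusion were measured as the percent spliced in (PSI), where both alleles had at least 20 reads in each replicate. Of 70 member events tested in 8 conditions 44 were in ESC, since in other conditions 1 allele often fell under 20 reads. Called events had an adjusted p below 0.05 in a quasi-binomial model with limma's moderated dispersion and a PSI difference of at least 0.1. The study also required the PSI of an event from assigned reads to be like that from all reads. That filter was not applied here, neither to these events nor to the background. All 4 called events were in Meg3 in cortex, of 11 events tested there in 4 genes, where 2.21% of all events were called.

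In Meg3 the exon at chr12:109549479-109549552 had PSI of 0.940 and 0.935 on C57BL/6J and 0.0472 and 0.0526 on SPRET/EiJ, a difference of 0.888 (adjusted p = 6.92e-09). The shorter form of this exon, chr12:109549519-109549552, had the same difference, and both events count the same skipping junction. The exon at chr12:109558237-109558320 differed by 0.858, and that at chr12:109544948-109545041 by 0.368 (0.516 and 0.487 against 0.0930 and 0.173, adjusted p = 0.0176). The replicates of the 2 alleles did not overlap in any of these events.

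These Meg3 differences rest on few SPRET/EiJ reads of a gene that was 99% on C57BL/6J. For the exon at 109549479, SPRET/EiJ had 215 and 210 skipping reads and 21 and 23 inclusion reads, against 515 and 497 skipping and 15798 and 14183 inclusion reads of C57BL/6J. For the exon at 109558237 it had 66 and 66 skipping and 20 and 20 inclusion reads. The same 2 SPRET/EiJ junctions make up the 281 and 276 SPRET/EiJ reads of the event at chr12:109549653-109549810, whose C57BL/6J shares of 69.1% and 68.8% were the lowest of any Meg3 event in cortex. At the exon at 109544948, PSI from all reads was 0.157 and 0.167 in cortex, below that of the C57BL/6J reads, and at the exon at 109549479 it was 0.947 and 0.945. Whether wrongly assigned or unassigned reads had a part in these differences was not tested.

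In the other conditions none of the events of the imprinted genes were called in the quasi-binomial model, against a background of 1.05% for the 44 ESC events, 3.63% in heart (0 of 2), 2.38% in kidney (0 of 1), 3.2% in lung (0 of 4), 2.75% in spleen (0 of 2), 2.94% with DMSO (0 of 1) and 2.79% with PladB (0 of 5). In liver, with 2.24%, no member event had enough reads on both alleles. At an unadjusted p below 0.05, 3 events passed in ESC, 1 of Impact and 2 of Plagl1, and 0 in the other conditions outside cortex. Over all 70 events the median absolute PSI difference was 0.0128. In ESC, where both copies of all 10 genes were read, the event of Plagl1 at chr10:13112519-13112550 had the PSI values 0.788 and 0.552 on C57BL/6J and 0.944 and 0.840 on SPRET/EiJ (adjusted p = 0.898).

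With all reads together, PSI of the same genes could be followed across tissues. Of 125 events, 45 had at least 20 reads per replicate in 4 or more conditions, and 15 of them, in Gnas, Grb10, Meg3, Plagl1 and Sgce, varied by at least 0.1 in mean PSI. No test was made of these differences.

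Sgce showed cortex forms. Its 27-base exon at chr6:4690469-4690495 had PSI of 0.509 and 0.473 in cortex and 0.857 to 0.995 in every other library. The 35-base exon at chr6:4677163-4677197 was at 0.624 and 0.630 in cortex and at most 0.0340 elsewhere, and the overlapping 71-base form was at 0.243 and 0.253 in cortex and at most 0.0987 elsewhere. The cortex libraries did not overlap the others in any of the 3 events.

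Gnas and Meg3 also had exons with tissue-dependent use. The 45-base exon of Gnas at chr2:174336747-174336791, which separates the long and short forms of the G protein subunit, ranged from 0.495 and 0.482 in heart through 0.582 and 0.563 in spleen to 0.984 and 0.983 in cortex. The 24-base exon at chr2:174328108-174328131, spliced to 174334212, was at 0.925 and 0.938 in cortex and between 0.0169 and 0.366 elsewhere. Its inclusion differed with the downstream exon. Spliced to 174328367, it was at 0.991 and 0.993 in cortex and between 0.591 and 0.936 in kidney, lung and spleen. The 81-base exon of Meg3 at chr12:109549291-109549371 had PSI of 0.166 and 0.193 in cortex, 0.893 and 0.665 in ESC and 0.941 or more in the other libraries.

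Grb10, which used the other allele in cortex, also had its lowest inclusion there. Its 165-base exon at chr11:11954744-11954908 had PSI of 0.810 and 0.779 in cortex and from 0.874 to 1 in all other libraries. In ESC, where both alleles could be read, its PSI was 0.951 and 0.919 on C57BL/6J and 0.884 and 0.892 on SPRET/EiJ, a difference of 0.0469 that was not called.

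**Figure D5:**
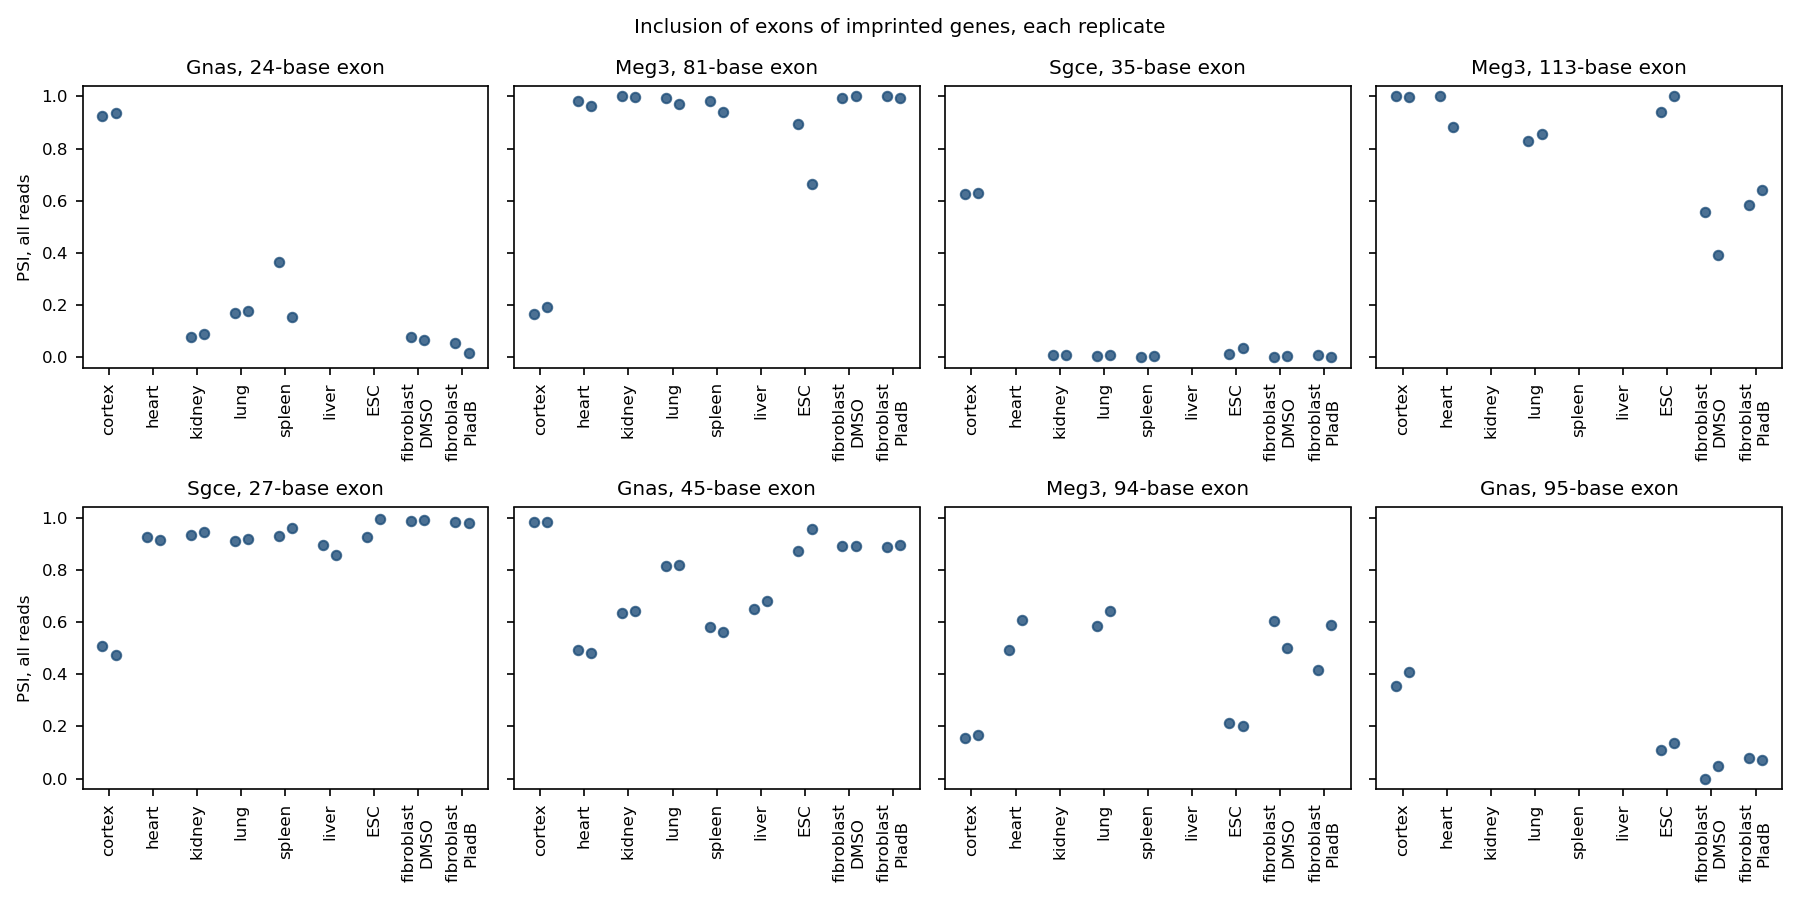
PSI from all reads (vertical axis) of exons of the imprinted genes that vary across conditions (horizontal axis), 1 point per replicate. The points of cortex stand apart from the other conditions in the 24-base Gnas exon spliced to 174334212, the 81-base Meg3 exon with upstream end 109546542 and both Sgce exons. In the 45-base Gnas exon heart is lowest and cortex highest.

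Other genes known as imprinted were taken from a list of 51, of which 26 had enough reads in at least 1 condition, giving 112 tested combinations. Of these 35 were higher on C57BL/6J, 18 on SPRET/EiJ and 59 were not called, with a median absolute log2 ratio of 0.49. All combinations gave 15.4% and 14.8% in these directions, so the count on SPRET/EiJ was near the background. Rian, a noncoding RNA next to Meg3, was at 99.7% and 99.7% C57BL/6J in cortex and at 29.4% and 27.0% in ESC. Igf2, the growth factor that Igf2r clears, was at 1.30% and 1.31% C57BL/6J in DMSO-treated fibroblasts.

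Counted by the allele the literature gives as active, the genes of the 10 with a single known active copy were toward that copy in 11 combinations for maternal and 23 for paternal genes, away from it in none, and not called in 3 and 8. These counts are from the test without a block. With the library as a block, Peg3 (log2 ratio 1.47), Plagl1 (0.96) and Meg3 (-0.94) were called away from the known copy in ESC. In the longer list the counts were 34 toward, 7 away and 45 not called for maternal genes, and 11, 1 and 14 for paternal genes. ESC gave 0 called combinations of 13 in the longer list, as it did for the 10 genes, both in the test without a block. With the block, 2 of the 10 were called higher on C57BL/6J and 2 on SPRET/EiJ in ESC. Rian was not called there at 29.4% and 27.0% C57BL/6J, so the lack of a call does not mean an equal split.

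The genes whose C57BL/6J share was most like that of a given imprinted gene were found by the mean absolute difference over conditions shared, as a description. For Meg3 these were Rian (1.28 percentage points over 6 conditions), Gm26782 (1.90 over 6) and 4930481A15Rik (3.28 over 5). For Igf2r they were Gm26782 (8.36 over 6), H2-T22 (8.78 over 6) and Fam132a (9.47 over 7). For Grb10 the nearest gene, H2-T22, was 15.1 points away over 7 conditions, followed by Plscr2 (15.3) and Gm26782 (15.6). Peg3 was tested in 2 conditions, too few for such a search.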

How the data were processed

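Per the labels and the study's methods, the authors used HISAT2 2.0.1, with soft clipping off, to align against both parental genomes, C57BL/6J (mm10) and SPRET/EiJ, assigned each read to the genome with fewer mismatches, moved coordinates to mm10 with g2gtools and ran rMATS on an Ensembl annotation. The deposited tables hold junction read counts, both replicates listed in 1 cell, and effective lengths, a score written by rMATS. The deposited TPM values were made by the authors from all reads with featureCounts. rMATS sample 1 was read as C57BL/6J and sample 2 as SPRET/EiJ, and the replicate number is the position in the list. Columns of the authors' own comparisons (differences, p-values and FDR) were not used.

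The members and gene lists were chosen with earlier results of these data known. All 10 genes are named in every condition. Genes of the longer imprinted list are counted, and those most like Peg3, Meg3, Grb10 and Igf2r are the 3 non-member genes with the smallest mean difference in share over at least 5 shared conditions. Autosomal genes with at least 20 reads in each replicate were tested with limma 3.58.1 (R 4.3.3), using voom and trimmed mean of M-values scaling, each condition alone for the alleles and all 7 tissues or 4 fibroblast libraries together for differences of ratio. A negative binomial test had been planned, and limma-voom was run in its place on the counts split from the deposited lists. TPM was tested with limma on log2(TPM + 0.1) for genes with a mean TPM of at least 1 in a condition. PSI was tested with a quasi-binomial model. All p-values were adjusted over all features, and the models were tested on simulated data.

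The 2 alleles of a replicate come from the same library, so the block pairs them. Across organs, same-numbered libraries had correlations of 0.0368 to 0.212 (median 0.0997 over 15 pairs), and they were not paired for TPM in the main test. Such low values do not show that a shared animal had no effect. The contrasts across tissues treat the organ libraries of 2 animals as separate, so their p-values measure spread between libraries. Alternatives were other scaling, depth limits, the deepest event alone, the block, other pseudocounts and filters, liver left out and each library left out. The deepest event was chosen in each condition, so a contrast can set different events of a gene against each other.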

Additional observations from a re-analysis of the deposited data

Results flagged for a closer look

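The differences of allele ratio between conditions that passed the limma-voom test of the difference itself are given here on the log2 scale. In cortex against the 6 other tissues they were -6.97 for Snrpn, -8.25 for Peg3, -9.28 for Grb10, -2.15 for Igf2r and -1.06 for Impact. In cortex alone the ratio of Snrpn (-10.67) lay between those of heart (-12.1) and lung (-10.0), and Peg3 was tested in cortex and ESC alone. The differences of Snrpn and Peg3 thus rest on ESC and on tissues without enough reads, which count with a ratio near 1. For Grb10 the direction of the allelic bias itself turned, from C57BL/6J in heart, kidney, lung and spleen to SPRET/EiJ in cortex, while Igf2r went from C57BL/6J to no call.

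In ESC against the 6 organs the differences were 5.50 for Snrpn, 2.87 for Peg3, 6.65 for Sgce, 3.70 for Plagl1, 3.37 for Mest and 1.21 for Impact, all toward C57BL/6J. They were -6.41 for Meg3, -5.21 for Grb10, -2.82 for Igf2r and -1.41 for Gnas, toward SPRET/EiJ. Organs without enough reads of a gene count here too with a ratio near 1, and for Peg3 cortex was the only organ tested. The 2 ESC clones are the only cultured stem cells in the series, so that culture, clone and cell type cannot be told apart.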

How the results depend on the processing

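The totals of called combinations over all conditions, and of called genes in each contrast, stayed within 1.5 times under the alternatives run. Within single conditions they moved by more, as given beside those results, and in ESC from 0 to 4 with the library as a block and 5 in the quasi-binomial model. Leaving out 1 library at a time gave 18 to 19 combinations higher on C57BL/6J, 25 to 28 higher on SPRET/EiJ, 4 to 5 genes in the cortex contrast, 7 to 10 in the ESC contrast and 0 for PladB, and for TPM 9 in cortex, 8 to 9 in ESC and 1 for PladB. For the combinations, the libraries were left out of 1 fit over all 9 conditions, not of the fits of each condition alone. Under a replicate block for the library the counts were 20 and 30 combinations, and 7, 10 and 0 genes in the 3 contrasts. Other calls that the block changed are given beside their results.

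Directions turned only for values near 0 or not called. The Snrpn log2 ratio in ESC was -0.01, and 0.0466 without trimmed mean factors and 0.23 for the deepest event. It was 0.0173 in 1 fit over all 9 conditions and -0.0444 to 0.0541 in that fit without single libraries. For Mest in ESC the range in that fit without single libraries was -0.397 to 0.0840. Gnas in lung turned to 1.01 and a share of 67.6% in the deepest event, and the PladB difference of Impact turned to -1.36 there. Without single libraries the PladB differences ranged from -0.75 to 2.77 for Meg3, -0.24 to 0.79 for Gnas and -0.26 to 1.14 for Igf2r. TPM differences ranged from -0.47 to 0.41 for Sgce in ESC and from -0.0603 to 0.0127 for Peg3 with PladB. With inclusion reads alone, 54 of 62 shares moved by less than the spread between replicates, and with the deepest event alone 44 did, 17 moved by more and 1 turned. Apart from the alternatives' own construction, the cause was not tested. The second count tool planned was not run.

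A minor allele with few reads sets the precision of large ratios, and 28 of 90 combinations had too few reads for a test.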
